A study of Caenorhabditis elegans with 24 samples.

Results

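The data described here are the microRNAs (miRNAs) recovered with ALG-1 from Caenorhabditis elegans carrying the F180del allele of alg-1, set against the miRNAs of whole lysate of that genotype. They come from 4 of 24 small RNA libraries. F180del IP stands for 2 libraries of RNA co-precipitated with ALG-1 from alg-1(ma447,F180del) animals, and F180del total for 2 libraries of RNA from unprecipitated lysate of that genotype. The libraries were taken by their genotype and fraction labels, and no measured value chose them. Used beside them were 2 IP and 2 total libraries each of alg-1(ma443, G199S), of the null alg-1(tm492) and of the wild type strain N2 (WT). The alleles V254I (zen25) and H751L (zen18) complete the series and appear only where named. All were whole animals fed for 45 h at 20 °C after hatching without food, in populations whose stage was looked at under the microscope. The labels number the libraries 1 and 2 in each group and do not tie a number to a culture, so that p-values rest on library to library spread, which may be technical. The number of independent lines behind each allele is not stated in the labels. The alg-1 transcript and the ALG-1 protein cannot be read from miRNA reads, so neither the genotype nor the yield of a precipitation could be checked, and all levels are shares within a library.

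ALG-1 is a miRNA-binding Argonaute of C. elegans related to human AGO1, in which changes have been found in neurodevelopmental disorders. A miRNA hairpin is cut into a short duplex, one strand of which (the guide) normally stays in the Argonaute and directs it to messenger RNAs, while the other (the passenger) is discarded and degraded. RNA recovered with an Argonaute is meant to report what the protein holds, and lysate RNA everything that is present, bound or not. The null IP libraries, which should hold no ALG-1, still gave 9889892 and 4667774 miRNA reads. A precipitate can therefore also hold miRNAs that ALG-1 did not bring down. Setting IP against total compares the composition of these 2 pools.

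The deposited table lists 437 mature miRNAs. F180del IP libraries held 3940626 and 8712579 miRNA reads, and F180del total libraries 7989814 and 9337197, within the range of 3940626 to 13835895 over all 24. A level is given as RPM (reads per 1000000 miRNA reads), and a count of 0 allows up to 0.761 and 0.344 RPM in the IP libraries and up to 0.375 and 0.321 RPM in the total libraries, for counting error only. Of the 437 miRNAs, 325 had reads in both F180del fractions, 12 only in the IP, 44 only in total and 56 in neither. Only 2 of those seen only in the IP had at least 10 reads, as did 9 of those seen only in total. Markers of whole-animal tissues all had reads in both fractions, among them miR-1-3p of muscle, miR-124-3p of neurons, lsy-6-3p of a taste neuron, miR-228-5p of glia, miR-60-3p of intestine, miR-35-3p of embryos and germline, and lin-4-5p and let-7-5p of larval development. In bulk RNA of this kind, fewer cells of a type and less of a miRNA per cell cannot be told apart. One library outside F180del stood apart: the first null IP library had reads for 153 miRNAs, against 232 in the second and between 257 and 351 in all others. It enters the shared estimate of spread, so counts of calls are also given without it.

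The 10 most abundant miRNAs took a smaller share of the IP than of the lysate, 56.9% and 60.9% of reads in F180del IP libraries and 74.3% and 75.0% in F180del total libraries. F180del total was led by the bantam-family member miR-58a-3p, which took 5.94% and 8.19% of IP reads, against 23.1% and 18.2% of total reads. The muscle miRNA miR-1-3p took 3.13% and 7.61% of IP reads, against 17.9% and 12.5% of total reads. In both cases each IP library lay below each total library. The IP was led by miR-48-5p, a let-7 family miRNA that times larval development, with 11.1% and 8.69% of IP reads, against 7.60% and 7.24% of total reads. The glial miR-228-5p was also among the 5 leading IP miRNAs, with 6.76% and 6.13% of IP reads, against 3.04% and 4.62% of total reads. The bantam-family member miR-80-3p took 5.74% and 7.81% of IP reads, against 0.916% and 3.61% of total reads. IP libraries lay above total libraries for these 3.

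Levels in the 2 fractions were otherwise alike in rank. Across the 315 miRNAs with enough reads to be tested, scaled log2 counts correlated at Pearson r of 0.924 and 0.941 between IP and total libraries of the same number, against 0.988 between the 2 IP libraries and 0.965 between the 2 total libraries. These correlations run across miRNAs of a few libraries, which are not independent replicates. The 2 IP libraries were closer to each other than the 2 total libraries, with a standard deviation (SD) of their log2 differences of 0.814 against 1.23. Some abundant miRNAs differed widely between the total libraries, such as miR-66-5p with 8598 and 62802 RPM and miR-84-5p with 3054 and 20070 RPM, which limits what can be said of their IP to total ratio.

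Of the 315 miRNAs, 7 were higher and 21 were lower in F180del IP than in F180del total at an adjusted p under 0.05 (edgeR quasi-likelihood test, Benjamini-Hochberg over 315 miRNAs, n = 2 libraries each), so 8.89% were called, 2.22% higher and 6.67% lower. At an unadjusted p under 0.05 there were 71, of which 24 were higher. In RPM, both IP libraries lay above both total libraries for 87 miRNAs (27.6%) and below both for 109 (34.6%). Scaling matters for small differences: the median log2 change of all tested miRNAs was -0.47 with the TMM factors used here and -0.14 with library totals. Calls rest on every library. Without the first or the second IP library 1 and 3 miRNAs were called higher and 5 and 5 lower, without the first or the second total library 8 and 3 higher and 6 and 12 lower, and without the first null IP library 19 higher and 20 lower.

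**Figure D1:**
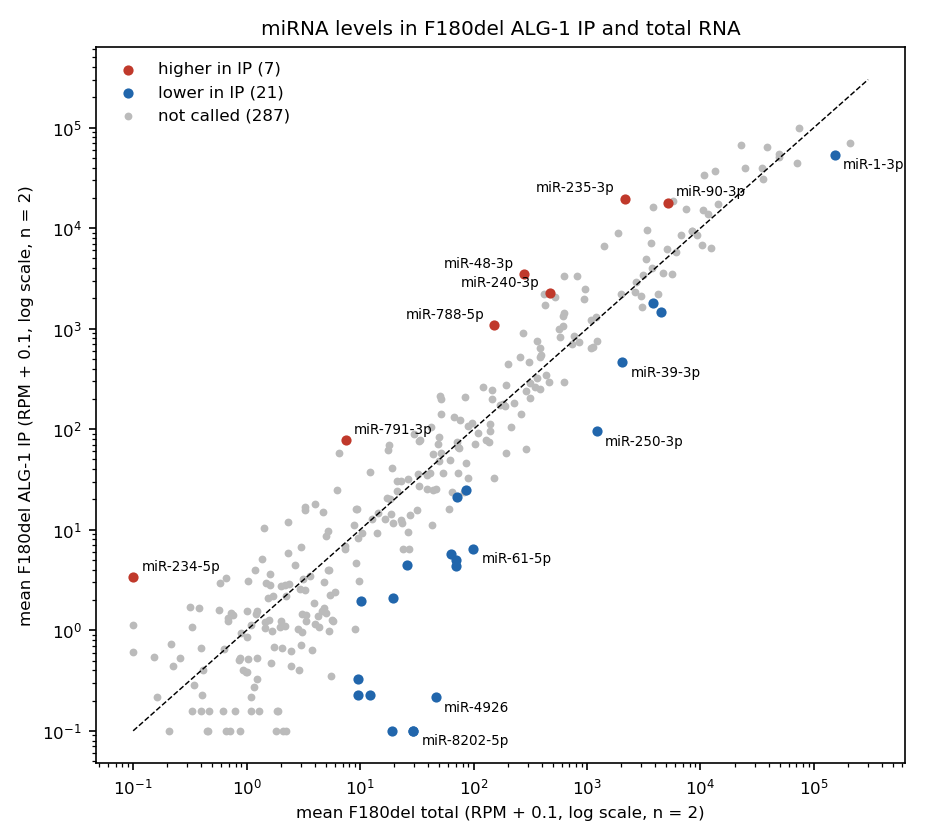
Mean level of each of the 315 tested miRNAs in F180del IP (vertical) and F180del total (horizontal), in RPM plus 0.1 on log axes, n = 2 libraries each; the dashed line marks equal levels. The 7 miRNAs called higher in the IP are red, the 21 called lower are blue, and most of the lowest blue points have levels under 100 RPM in total.

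The miRNAs called higher in F180del IP ranged from a trace passenger to some of the abundant guides. The largest abundant change was that of miR-48-3p, the passenger of the let-7 family hairpin mir-48, with 4361 and 2626 RPM in F180del IP and 447 and 113 RPM in F180del total. Its log2 change was 3.34 ± 0.67 (SE, edgeR adjusted p = 0.00270). The IP libraries did not overlap the total libraries. In WT the same strand was scarce, with 75.5 and 54.2 RPM in IP and 35.3 and 19.1 RPM in total. It was called higher there too, by 1.85 ± 0.63 (edgeR adjusted p = 0.0406). In null, which lacks ALG-1, it was called higher by 1.86 ± 0.63 (edgeR adjusted p = 0.0262). Its IP to total ratio in F180del exceeded that in WT by a log2 difference of 1.49 ± 0.87 (edgeR adjusted p = 0.570), which does not pass.

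Among the 7 the smallest p was that of miR-235-3p, a miRNA known in C. elegans to keep progenitor cells quiescent in starved larvae. It had 22479 and 16715 RPM in F180del IP and 2707 and 1612 RPM in F180del total, a log2 change of 2.86 ± 0.44 (edgeR adjusted p = 0.000438). The groups lay far apart relative to their spread. The WT change was of like size, at 2.79 ± 0.44 (edgeR adjusted p = 0.000229), and so was the null change, at 3.02 ± 0.45 (edgeR adjusted p = 8.02e-05). Its call held in all 14 alternative settings, with log2 changes between 2.72 and 3.87.

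The neuronal miR-791-3p, which acts in carbon dioxide sensing neurons, had 77.4 and 76.9 RPM in F180del IP and 10.6 and 4.07 RPM in F180del total (log2 change 3.08 ± 0.75, edgeR adjusted p = 0.0132). Its IP level barely varied, and both IP values were well above both total values. In WT it had 86.0 and 82.1 RPM in IP and 9.94 and 15.6 RPM in total. miR-240-3p, whose cluster with mir-786 is needed for a regular defecation rhythm, had 2305 and 2178 RPM in F180del IP and 374 and 574 RPM in F180del total (1.89 ± 0.44, edgeR adjusted p = 0.0102). miR-90-3p had 18333 and 17429 RPM in F180del IP and 5999 and 4319 RPM in F180del total (1.46 ± 0.38, edgeR adjusted p = 0.0196). No IP value of either fell within the range of the total values. In null, which lacks ALG-1, the log2 changes were 3.48 for miR-791-3p, 2.32 for miR-240-3p and 2.60 for miR-90-3p, all called higher.

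The other 2 were named passengers, as the arm less represented across the 10 total libraries that are not F180del. miR-788-5p had 1184 and 966 RPM in F180del IP and 169 and 137 RPM in F180del total (log2 change 2.48 ± 0.71, edgeR adjusted p = 0.0314). It outnumbered its partner miR-788-3p in the IP, at 653% and 434% of partner reads in F180del and 313% and 154% in WT. The same held in WT total, at 285% and 190%, but not in F180del total or null total. miR-788-5p is therefore not read as a discarded strand. In null its log2 change was 2.80 (edgeR adjusted p = 0.00517), also called higher. miR-234-5p had 17 and 20 reads in F180del IP and none in F180del total (edgeR adjusted p = 0.0367), so it was at least 16.9-fold higher in the IP, taking 3 reads over the 2 total libraries as the floor. Its IP level was only 4.31 and 2.30 RPM. Just outside the threshold lay the guides miR-86-5p, with 3364 and 3370 RPM in F180del IP and 685 and 572 RPM in F180del total, and miR-54-3p, with 6350 and 7000 RPM in F180del IP and 1299 and 1515 RPM in F180del total. Both had an edgeR adjusted p of 0.0567, and in both the groups did not overlap.

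Most miRNAs called lower in F180del IP were scarce. Of the 21, 3 had no read in either IP library and 4 had none in one of them. miR-8202-5p had 0 and 0 RPM in F180del IP and 35.5 and 23.2 RPM in F180del total (edgeR adjusted p = 0.00238), at least 122-fold lower in the IP. miR-8198-3p had 0 and 0 RPM in F180del IP and 29.5 and 28.5 RPM in F180del total (edgeR adjusted p = 0.000563), also at least 122-fold lower. miR-8191-5p had 0 and 0 RPM in F180del IP and 21.4 and 16.8 RPM in F180del total (edgeR adjusted p = 0.00179), at least 79.8-fold lower. All 3 were counted in both total libraries and were not detectable in the IP at this depth.

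miR-4926, for which a single strand is named, had 0 and 0.230 RPM in F180del IP and 57.4 and 35.4 RPM in F180del total (log2 change -8.46 ± 1.30, edgeR adjusted p = 0.000563). miR-354-3p had 0.254 and 0 RPM in F180del IP and 12.9 and 11.5 RPM in F180del total (-7.19 ± 1.72, edgeR adjusted p = 0.0132). In the WBcel235 annotation mir-354 overlaps an exon of rps-20, a ribosomal protein gene, on the same strand. miR-4936 had 0.254 and 0 RPM in F180del IP and 12.5 and 6.64 RPM in F180del total (-6.82 ± 1.56, edgeR adjusted p = 0.0103). For these, as for miR-4806-3p with 0 and 0.459 RPM in F180del IP and 10.1 and 8.67 RPM in F180del total, the IP held at most a few reads.

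The numbers in the names were looked at only after the values were seen: 9 of the 21 are 1000 and above, given to hairpins that entered the miRNA catalogue late. Among all 103 tested miRNAs with such numbers 0 were higher and 9 lower in F180del IP, with a median log2 change of -0.94, and among the other 212 there were 7 higher and 12 lower, with a median of -0.32. The 9 of 103 are near the 6.67% called lower among all tested miRNAs. They were also scarcer, with median total levels of 1.64 RPM against 92.2 RPM in the others. The 9 come from 8 hairpins, of which 6 lie inside protein-coding genes on the same strand, among them ras-1 (mir-4806), unc-77 (mir-8202) and ari-1.3 (mir-4926). That is 75% of 8 hairpins, against 39.5% of the 76 late-numbered hairpins tested. Hairpins with other numbers went the other way. Of 12 with a strand called lower 1 lay so (8.33%), against 19.8% of those tested. No test was run on a grouping chosen in this way.

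Abundance and direction moved together more broadly. Among 131 miRNAs with a mean under 10 RPM over the 4 F180del libraries the median log2 change was -1.06, with 1 called higher and 5 lower. From 10 to 100 RPM it was -0.59 over 74 miRNAs (1 higher, 11 lower), from 100 to 1000 RPM -0.40 over 51 (1 higher, 1 lower), and from 1000 RPM upward -0.06 over 59 (4 higher, 4 lower). In the most abundant class the IP lay above total for 30 miRNAs and below it for 13, whereas under 10 RPM it lay above for 26 and below for 55. Over all tested miRNAs it lay above for 27.6% and below for 34.6%. These counts use RPM and the medians TMM factors, so they are not on one scale. Tested miRNAs passed the filter in some group, so those at 0 in one fraction had to be present elsewhere.

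Strands of well known hairpins were among the 21 too. miR-61-5p, the passenger of a hairpin whose guide acts in vulval cell fate, had 4.82 and 7.92 RPM in F180del IP and 134 and 64.2 RPM in F180del total, a log2 change of -4.26 ± 0.66 (edgeR adjusted p = 0.000438). This call held in all 14 alternative settings. miR-250-3p, which carries the miR-2 seed, had 63.2 and 129 RPM in F180del IP and 1091 and 1337 RPM in F180del total (-4.01 ± 1.02, edgeR adjusted p = 0.0166). Its fractions stood far apart. miR-789-3p had 4.06 and 5.74 RPM in F180del IP and 84.6 and 54.0 RPM in F180del total (-4.13 ± 0.92, edgeR adjusted p = 0.00755), and miR-4816-5p had 1.52 and 9.64 RPM in F180del IP and 61.5 and 65.2 RPM in F180del total (-3.80 ± 1.00, edgeR adjusted p = 0.0196). In none of these did the fractions overlap.

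At the abundant end, the muscle miRNA miR-1-3p had 31318 and 76107 RPM in F180del IP and 179104 and 124525 RPM in F180del total, a log2 change of -1.83 ± 0.54 (edgeR adjusted p = 0.0367). The fractions were separate although the 2 IP libraries differed from each other by a factor of over 2. WT moved the same way by -1.08 ± 0.53 without passing (edgeR adjusted p = 0.138), and the difference between the genotypes was -0.74 ± 0.75 (edgeR adjusted p = 0.802). miR-246-3p, a lifespan-associated miRNA, lay just outside the threshold, with 2595 and 1790 RPM in F180del IP and 4926 and 3526 RPM in F180del total (-1.28 ± 0.40, edgeR adjusted p = 0.0538).

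**Figure D2:**
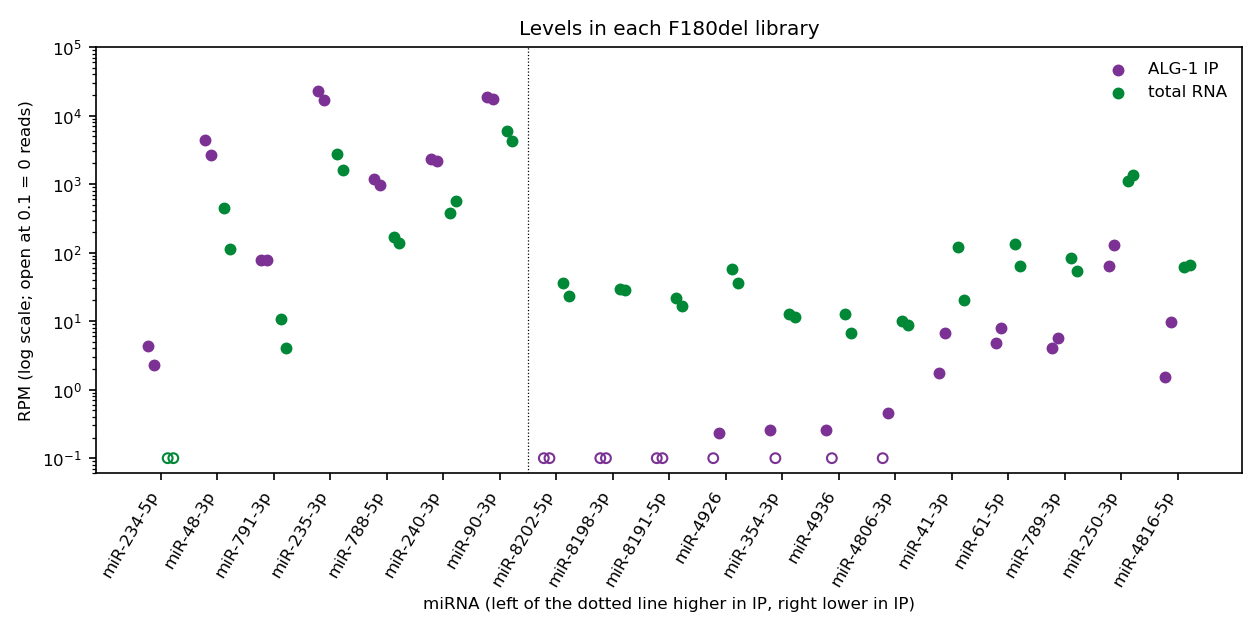
RPM of the named miRNAs in each of the 4 F180del libraries on a log axis, IP purple and total green, with values of 0 drawn as open circles at 0.1. Left of the dotted line the 7 miRNAs called higher in the IP have both IP points above both total points, and right of it the 12 with the largest decreases have both below.

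The miR-35 family, which acts in embryos and the germline, was the seed family with the most calls. All 8 members were tested. 4 were lower in the IP (miR-39-3p, miR-40-3p, miR-41-3p and miR-42-3p), none was higher, and for 7 both IP libraries lay below both total libraries, while 6.67% of all tested miRNAs were called lower and 34.6% had the IP below. Its median log2 change was -2.01, against -0.47 over all tested miRNAs and, for the same family, -1.81 in null and -0.84 in WT. miR-39-3p had 398 and 524 RPM in F180del IP and 2671 and 1434 RPM in F180del total (-2.48 ± 0.47, edgeR adjusted p = 0.00215). miR-41-3p had 1.78 and 6.66 RPM in F180del IP and 120 and 20.5 RPM in F180del total (-4.31 ± 1.33, edgeR adjusted p = 0.0465). For both the fractions stood apart.

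For miR-35-3p and miR-37-3p the differences were smaller. miR-35-3p, the family's founder, had 3182 and 3900 RPM in F180del IP and 4612 and 4717 RPM in F180del total (-0.74 ± 0.37, edgeR adjusted p = 0.241). miR-37-3p overlapped between fractions, with 1429 and 995 RPM in F180del IP and 976 and 1170 RPM in F180del total (-0.17 ± 0.55, edgeR adjusted p = 0.874). Summed over the family there were 8448 and 8629 RPM in F180del IP and 19172 and 13619 RPM in F180del total. With library totals in place of TMM factors the family median was -1.69 and 2 members (miR-39-3p and miR-40-3p) were called. No member's IP to total ratio differed from WT at the threshold. Members share long stretches of sequence and may share reads, so single members are uncertain.

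The let-7 family, which drives larval to adult timing, showed no call in F180del IP: of 7 tested members 0 were higher and 0 lower, with a median log2 change of -0.14, which becomes 0.25 with library totals. let-7-5p had 17348 and 17742 RPM in F180del IP and 11343 and 17297 RPM in F180del total (-0.06 ± 0.61, edgeR adjusted p = 0.957). miR-84-5p had 13300 and 14179 RPM in F180del IP, which lay between the 3054 and 20070 RPM of the total libraries (-0.14 ± 0.84, edgeR adjusted p = 0.936). The family median was 2.80 in null and 1.01 in WT. In WT miR-84-5p had 10216 and 26049 RPM in IP and 1496 and 1949 RPM in total, and the difference between the genotypes' ratios was -4.16 ± 1.24 (edgeR adjusted p = 0.0971), short of the threshold.

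The heterochronic lin-4-5p had 8577 and 5545 RPM in F180del IP and 4755 and 2555 RPM in F180del total (0.63 ± 0.44, edgeR adjusted p = 0.396). In both members of its family the IP libraries lay above the total libraries, without a call. The miR-51 family, broadly expressed and needed for embryos to complete development, had 6 members tested, 0 called, and 5 with both IP libraries above both total libraries, as for 27.6% of all tested miRNAs, with a median of 0.67, against 1.96 in null and 1.62 in WT. miR-55-3p, one of its abundant members, had 34915 and 38993 RPM in F180del IP and 12781 and 14053 RPM in F180del total (1.12 ± 0.76, edgeR adjusted p = 0.379). Under RLE factors or library totals miR-54-3p of this family was called higher.

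The bantam family had 6 members tested, 0 called, and a median of -0.09 that becomes 0.25 with library totals. Its 2 leading members pointed in opposite directions. miR-58a-3p had 59410 and 81918 RPM in F180del IP and 230506 and 182334 RPM in F180del total (-1.88 ± 0.68, edgeR adjusted p = 0.10). miR-80-3p had 57436 and 78149 RPM in F180del IP and 9161 and 36112 RPM in F180del total (1.2 ± 0.97, edgeR adjusted p = 0.471). Neither passed the test, though the fractions did not overlap in either.

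The other lists are given beside the 2.22% of all tested miRNAs called higher and the 6.67% called lower. The miR-63/64 family (5 tested) and the miR-44 family (4) had 0 calls, with medians of -0.16 and -0.33, and miR-44-3p and miR-45-3p had nearly equal counts and may share reads. The miR-2 family (4 tested, median -1.28) had 1 lower member, miR-250-3p, and the family of miR-238-3p (3 tested, median -1.23) had none. Of 9 tissue-restricted miRNAs 1 was higher (miR-791-3p) and 1 lower (miR-1-3p), with a median of -0.09 that is 0.29 with library totals. Of 9 stress and lifespan miRNAs 2 were higher (miR-235-3p and miR-90-3p) and 0 lower, with a median of 0.28, against 1.37 in null and 1.69 in WT. These lists are too short to read a share from 1 or 2 calls. miR-243-3p, a miRNA known to load mainly into another Argonaute, RDE-1, had 191 and 207 RPM in F180del IP and 33.5 and 68.5 RPM in F180del total (1.60 ± 0.61, edgeR adjusted p = 0.11).

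For the strands of a hairpin, the guide was taken as the arm better represented across the 10 total libraries that are not F180del, and its partner as the passenger, so F180del libraries took no part in the choice. Of 190 guides 167 were tested, with 4 higher and 14 lower in F180del IP and a median log2 change of -0.46. Of 190 passengers 122 were tested, with 3 higher and 4 lower and a median of -0.43. In F180del the 2 classes thus had nearly the same median. In WT the medians were -0.05 for guides and -0.63 for passengers, in G199S they were -0.24 and -0.38, and in null -0.46 and -2.16. Passengers that passed the filter had reads in some group, and the others were too scarce to test.

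Passenger strands took a larger share of reads in the IP than in the lysate of F180del animals. They made up 3.36% and 2.78% of reads in F180del IP libraries, against 1.65% and 1.27% in F180del total libraries. The means were 3.07% ± 0.415 in IP and 1.46% ± 0.268 in total (SD, n = 2 each), a ratio of 2.10, and single IP libraries over single total libraries gave 1.68 to 2.64. Each IP library was above each total library. An exact permutation test of 2 against 2 libraries cannot go below p = 0.333, so none is given.

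In WT the order was reversed, with passengers at 0.272% and 0.232% of IP reads and 0.505% and 0.391% of total reads, a ratio of 0.563. G199S also had more in the IP, with means of 1.83% in IP and 1.28% in total and a ratio of 1.43. In the null, whose precipitate should hold no ALG-1, the means were 0.447% in IP and 1.16% in total, a ratio of 0.386. V254I had a ratio of 0.784 and H751L of 0.338. F180del and G199S were the 2 genotypes with a ratio above 1 in these libraries.

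**Figure D3:**
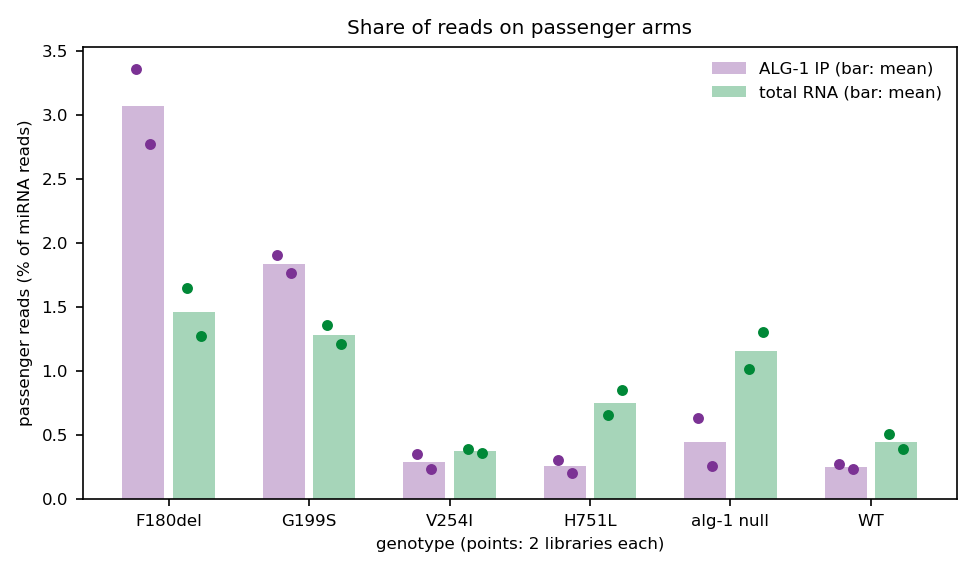
Reads on passenger arms as a percentage of miRNA reads, for ALG-1 IP (purple) and total RNA (green) of each genotype; bars are means and points the 2 libraries. The F180del IP libraries, at 3.36% and 2.78%, are the highest of all, and F180del and G199S are the genotypes whose IP lies above total.

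A few strands carry much of this share. miR-58a-5p, the passenger of the most abundant hairpin, made up 28.5% of the passenger reads in F180del IP and 12.5% in F180del total. It had 9963 and 7725 RPM in F180del IP and 2865 and 903 RPM in F180del total (log2 change 1.92 ± 0.63, edgeR adjusted p = 0.0567), with no overlap. miR-48-3p made up 10.7% of IP passenger reads and 1.84% of total passenger reads, and miR-72-3p 7.95% and 6.40%. miR-80-5p went the other way, with 7.09% of IP passenger reads and 20.7% of total passenger reads. The 8 leading passengers together held 76.1% of IP passenger reads and 59.8% of total passenger reads. Without miR-58a-5p the ratio of IP to total was 1.72, without the 2 leading passengers 1.47, and without all 8 it was 1.26, still above 1. Naming as guide the arm with more reads in the IP libraries of the other genotypes gave 1.83 in F180del, 1.24 in G199S and 0.176 in WT.

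The ratio of the 2 arms within a hairpin does not depend on the scaling of libraries. It was tested for the 97 of 190 hairpins that had a mean of at least 10 passenger reads over the 4 F180del libraries. The passenger to guide ratio was higher in F180del IP than in F180del total for 7 hairpins and lower for 5 (limma on log2 ratios, adjusted p under 0.05), 12.4% of those tested, 7.22% higher and 5.15% lower. At an unadjusted p under 0.05 there were 25. The median log2 difference over the 97 was -0.11, and 47 lay above 0. Leaving out the first IP library left 0 higher and 0 lower, and leaving out the second left 1 and 1. Without the first or the second total library 3 and 6 were higher and 1 and 2 lower, and without the first null IP library 15 were higher and 8 lower.

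Hairpins with more passenger in the IP included the 2 largest sources of passenger reads. miR-58a-5p reached 16.8% and 9.43% of its guide's reads in F180del IP, against 1.24% and 0.496% in F180del total (log2 difference 4.00 ± 1.13, limma adjusted p = 0.0236). miR-48-3p reached 3.94% and 3.02% of its guide's reads in F180del IP, against 0.587% and 0.156% in F180del total (3.51 ± 0.94, limma adjusted p = 0.0196). The fractions were separate in both. The mir-42 passenger stood at 1.00% and 0.957% of its guide in F180del IP and 0.0826% and 0.125% in F180del total (3.25 ± 0.80, limma adjusted p = 0.0196), and the mir-1 passenger at 0.435% and 0.0989% in F180del IP and 0.0321% and 0.0214% in F180del total (2.98 ± 0.79, limma adjusted p = 0.0196). For these 2 the guide strand was itself called lower in the IP, as described above. The mir-58a guide was not called, but took 5.94% and 8.19% of IP reads, against 23.1% and 18.2% of total reads. In WT, too, each IP library lay above each total library for mir-58a, mir-48, mir-42 and mir-1. None of them differed from WT at the threshold. In null, which lacks ALG-1, the mir-42 passenger stood at 4.37% and 2.09% in IP and 0.0308% and 0.0928% in total. The mir-58a passenger there stood at 33.2% and 1.56% in IP and 0.698% and 0.672% in total. For mir-48 and mir-1 the null fractions overlapped.

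In mir-789 the strand called the passenger outnumbered the guide in the IP, at 300% and 234% of guide reads, against 8.73% and 33.3% in F180del total (3.93 ± 1.06, limma adjusted p = 0.0196). The same inversion stood in WT, at 141% and 182% in IP and 10.4% and 18.2% in total. In mir-360 the passenger had 64 and 118 reads in F180del IP, with no guide read at all in the first IP library. There the passenger was 609% and 114% of the guide in F180del total. The seventh hairpin, mir-79, falls outside the naming rule and is given because it completes the count: its passenger stood at 26.0% and 25.0% of guide reads in F180del IP and 2.07% and 8.94% in F180del total (2.57 ± 0.70, limma adjusted p = 0.0196).

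Hairpins with less passenger in the IP included mir-235 and mir-90, whose guides were called higher, and mir-61, whose passenger was called lower. The mir-235 passenger stood at 0.146% and 0.241% of its guide in F180del IP and 1.97% and 1.85% in F180del total (-3.35 ± 0.99, limma adjusted p = 0.0318). The mir-90 passenger stood at 0.346% and 0.450% in F180del IP and 1.94% and 2.02% in F180del total (-2.33 ± 0.59, limma adjusted p = 0.0196). The mir-61 passenger stood at 0.143% and 0.218% in F180del IP and 1.84% and 1.66% in F180del total (-3.28 ± 0.63, limma adjusted p = 0.00712). In all 3 the fractions were well separated. The mir-54 passenger, at 1.18% and 1.08% in F180del IP and 10.1% and 9.35% in F180del total (-3.11 ± 0.77, limma adjusted p = 0.0196), and the mir-230 passenger, at 1.79% and 3.94% in F180del IP and 10.5% and 9.24% in F180del total (-1.89 ± 0.60, limma adjusted p = 0.0450), completed the 5.

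**Figure D4:**
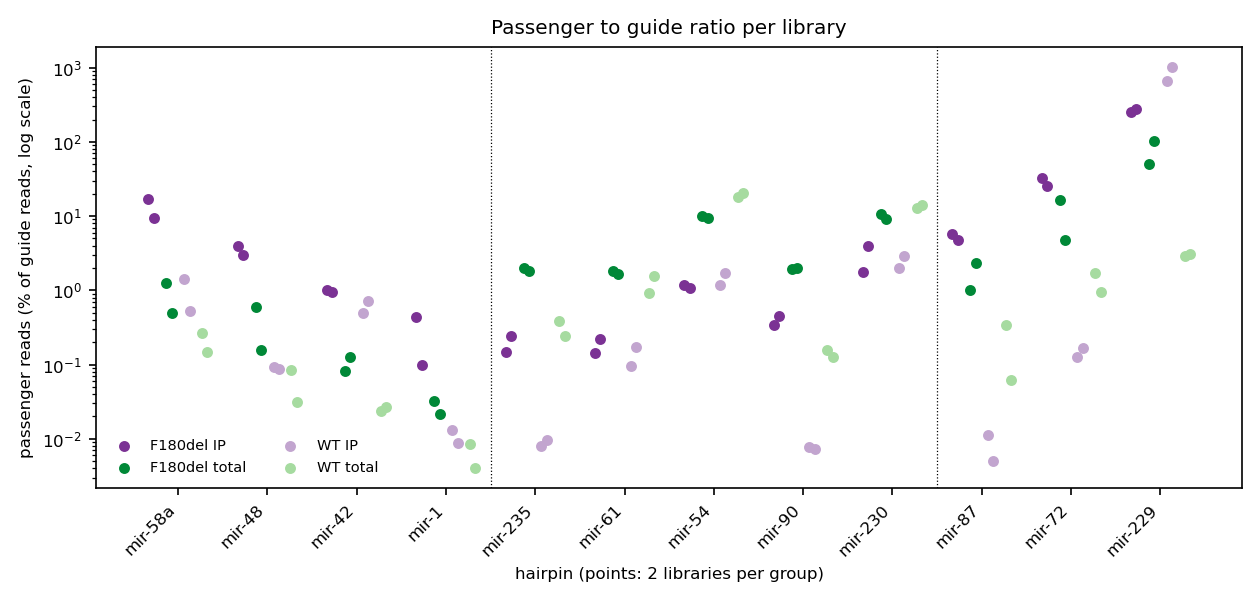
Passenger reads as a percentage of guide reads on a log axis, per hairpin, for F180del IP, F180del total, WT IP and WT total, 2 libraries each. The first block holds hairpins with a higher ratio in F180del IP than in F180del total, the second those with a lower ratio, and the third the hairpins whose IP to total difference differed from WT.

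Comparison with WT, which asks whether the IP to total ratio itself differs between the alleles, was tested as an interaction. Most calls in F180del were shared in direction: all 7 higher and all 21 lower miRNAs had the same sign of IP to total change in WT, and 6 and 16 of them were also called there. WT itself had 29 miRNAs called higher and 40 called lower. In G199S 5 of the 7 and 13 of the 21 were called. In null, which lacks ALG-1, 6 of the 7 and 12 of the 21 were also called in the same direction, among 41 miRNAs called higher and 71 called lower there. Across the 315 miRNAs the F180del log2 IP to total ratios correlated at Pearson r of 0.828 with those of G199S, 0.703 with V254I, 0.630 with H751L, 0.629 with WT and 0.476 with null, which describes these libraries only.

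Between F180del and WT the ratio differed for 7 miRNAs, 4 higher and 3 lower in F180del (edgeR interaction, adjusted p under 0.05), 2.22% of 315 (1.27% higher, 0.952% lower), with 38 at an unadjusted p under 0.05. The median difference of all miRNAs was -0.26 with TMM factors and 0.65 with library totals, but the same 7 were called under both. With a block for the library number, which the labels do not tie to a culture, 0 were called. No call held without the first F180del IP library, without the second F180del total library, without the first WT IP library or without the first WT total library. Without the second F180del IP library 1 higher and 0 lower remained in number, without the second WT IP library 0 and 2, and without the second WT total library 2 and 2.

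The 4 higher ones were 3 passengers and miR-229-3p. miR-72-3p had 2740 and 2175 RPM in F180del IP and 1482 and 450 RPM in F180del total, against 14.3 and 15.9 RPM in WT IP and 142 and 66.5 RPM in WT total. The difference of the log2 ratios was 3.18 ± 0.82 (edgeR adjusted p = 0.0456). F180del IP lay above F180del total, while WT IP lay below WT total. miR-87-5p had 86.0 and 54.1 RPM in F180del IP and 15.4 and 20.3 RPM in F180del total, against 0.253 and 0.0806 RPM in WT IP and 4.87 and 0.976 RPM in WT total, a difference of 5.00 ± 1.29 (edgeR adjusted p = 0.0456). It moved in opposite directions in the same way. The mir-87 hairpin lies in an intron of kup-1 on the same strand.

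The other passenger, miR-790-3p, was scarce, with 4.57 and 3.21 RPM in F180del IP and 4.38 and 6.0 RPM in F180del total, against 0.169 and 0.161 RPM in WT IP and 7.91 and 7.99 RPM in WT total (4.18 ± 1.05, edgeR adjusted p = 0.0456). miR-229-3p, from the cluster of mir-64, mir-65, mir-66 and mir-229 in an intron of gcn-1, had 802 and 692 RPM in F180del IP and 1182 and 1266 RPM in F180del total, against 75.5 and 58.4 RPM in WT IP and 5824 and 5065 RPM in WT total. Its difference was 4.73 ± 0.95 (edgeR adjusted p = 0.00958). It is the more abundant arm in lysate, but in WT IP the other arm, miR-229-5p, outnumbered it, at 651% and 1018% of its reads, against 2.94% and 3.11% in WT total. In F180del miR-229-5p stood at 253.8% and 273% in IP and 49.9% and 103% in total. The arms of mir-229 were thus less unequal between IP and total in F180del than in WT.

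**Figure D5:**
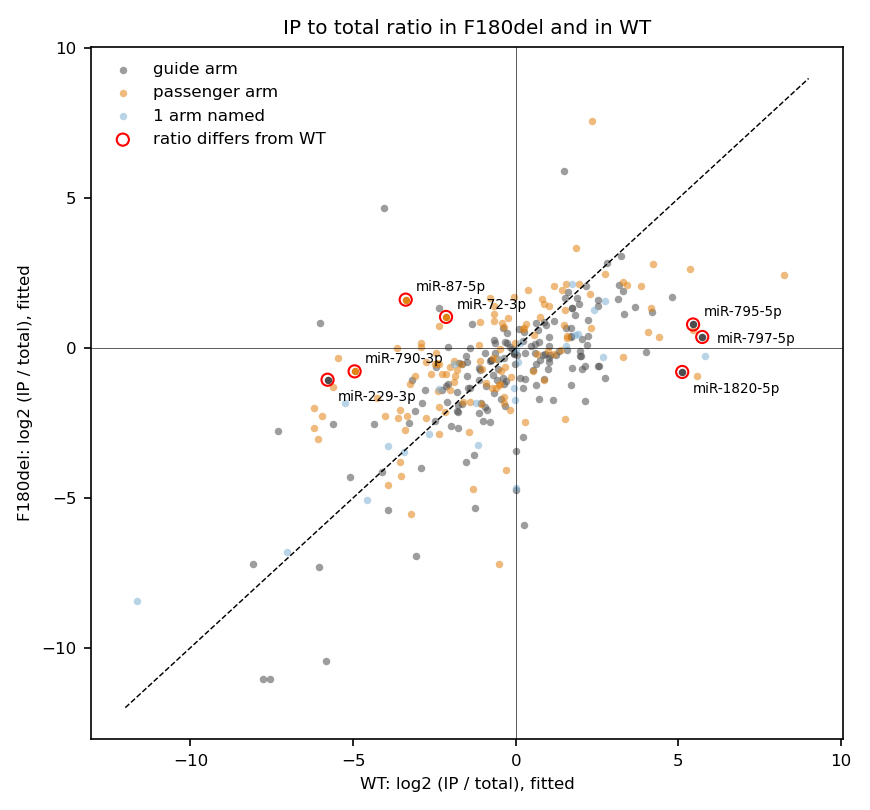
Fitted log2 IP to total change of each of the 315 tested miRNAs in F180del (vertical) and WT (horizontal), guides grey, passengers orange and miRNAs with 1 named arm blue; the dashed line marks equal changes. Red circles mark the 7 miRNAs whose ratios differ between the genotypes, 4 above the line and 3 below it.

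The 3 lower ones were guides whose share of reads in WT was far larger in IP than in total. They had the same order in null, with 457 and 419 RPM in IP and 31.1 and 23.4 RPM in total for miR-795-5p, 203 and 132 RPM in IP and 14.4 and 3.24 RPM in total for miR-797-5p, and 450.2 and 397 RPM in IP and 25.2 and 19.4 RPM in total for miR-1820-5p. miR-795-5p, a let-7 family member, had 519 and 362 RPM in F180del IP and 189 and 213 RPM in F180del total, against 366 and 292 RPM in WT IP and 5.88 and 14.9 RPM in WT total (-4.66 ± 0.88, edgeR adjusted p = 0.00958). The IP levels of the genotypes were similar and the total levels were not. miR-797-5p, which carries the miR-2 seed, had 92.6 and 72.5 RPM in F180del IP and 21.3 and 76.9 RPM in F180del total, against 368 and 185 RPM in WT IP and 7.10 and 7.63 RPM in WT total (-5.36 ± 1.10, edgeR adjusted p = 0.00958). miR-1820-5p had 136 and 393 RPM in F180del IP and 44.4 and 654 RPM in F180del total, against 280 and 344 RPM in WT IP and 9.33 and 16.7 RPM in WT total (-5.91 ± 1.37, edgeR adjusted p = 0.0269), and its F180del total libraries differed widely.

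Relative to the median of all miRNAs, passengers stood higher and guides lower in the comparison with WT: the median difference was 0.40 for passengers and -0.52 for guides with TMM factors, and 1.26 and 0.36 with library totals, around medians of all miRNAs of -0.26 and 0.65. Tested passengers needed enough reads in some group, F180del groups included, which may favour F180del. These medians are therefore not read as a difference from WT. Within hairpins, which needs no scaling, the IP to total difference of the passenger to guide ratio exceeded that of WT in 66 of 97, with a median log2 difference of 1.08. The 97 were kept by passenger reads in F180del libraries alone, which may favour F180del over another genotype. Against G199S, where no hairpin passed, 66 of 97 also lay above 0. The count above 0 is therefore not read as a difference from WT. 3 hairpins passed the test (3.09%), 2 higher (2.06%) and 1 lower (1.03%), and 17 had an unadjusted p under 0.05. In mir-72 the passenger stood at 32.1% and 25.1% of its guide in F180del IP and 16.3% and 4.70% in F180del total, against 0.128% and 0.166% in WT IP and 1.72% and 0.955% in WT total (4.83 ± 0.93, limma adjusted p = 0.00673). In mir-87 it stood at 5.78% and 4.74% in F180del IP and 1.01% and 2.33% in F180del total, against 0.0111% and 0.00505% in WT IP and 0.342% and 0.0625% in WT total (5.70 ± 1.37, limma adjusted p = 0.0208). The lower one was mir-229 (-6.19 ± 1.30, limma adjusted p = 0.00851). The mir-72 call was kept in all 16 alternative settings. The mir-87 call was lost in 6 of 16.

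Against the null, the control for what the precipitation brings down without ALG-1, the IP to total ratio differed for 27 miRNAs, 15 higher and 12 lower in F180del (edgeR interaction, adjusted p under 0.05), 8.57% of 315 (4.76% higher, 3.81% lower). At an unadjusted p under 0.05 there were 86, and the median difference of all miRNAs was 0.44 with TMM factors and 1.75 with library totals. Of the 15 higher, 12 were passengers, against 122 of the 315 tested, and 9 had no read in either null IP library. The share of all tested miRNAs without a null IP read is not given here. Among these 9 were the passengers miR-87-5p, miR-55-5p, miR-360-3p, miR-81-5p, miR-790-3p, miR-70-5p and miR-231-5p. The first null IP library had reads for only 153 miRNAs, so neither the 9 nor the 12 passengers are read as a result. miR-8200-3p, a guide, had 40.3 and 42.1 RPM in F180del IP and 17.5 and 20.2 RPM in F180del total, while null had 0 and 0 RPM in IP and 13.6 and 7.55 RPM in total (edgeR adjusted p = 0.000632). miR-55-5p, a passenger, had 32.0 and 40.5 RPM in F180del IP and 126 and 19.5 RPM in F180del total, while null had 0 and 0 RPM in IP and 61.6 and 105 RPM in total (edgeR adjusted p = 0.00236). miR-87-5p had no null IP read either, with 16.6 and 7.24 RPM in null total (edgeR adjusted p = 0.00175). Each of these strands was seen in both F180del fractions and in null total, and was not detectable in null IP.

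Of the 12 lower, 10 were guides, against 167 of the 315 tested. let-7-5p had 17348 and 17742 RPM in F180del IP and 11343 and 17297 RPM in F180del total, while null had 48674 and 34652 RPM in IP and 19773 and 4166 RPM in total (-2.86 ± 0.89, edgeR adjusted p = 0.0486). miR-84-5p had 46948 and 31015 RPM in null IP and 3829 and 924 RPM in null total, and its ratio differed by -5.16 ± 1.26 (edgeR adjusted p = 0.0102). For both miRNAs null IP lay above null total. Without the first null IP library 13 were higher and 8 lower, and without the second 86 and 12. Without the first or second F180del IP library 12 and 11 were higher and 3 and 1 lower. Without the first or second F180del total library 39 and 19 were higher and 7 and 5 lower, and without the first or second null total library 23 and 11 were higher and 23 and 6 lower. Counts against the null therefore depend on single libraries.

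Within hairpins, a comparison added after the data were seen, the IP to total difference of the passenger to guide ratio was higher in F180del than in null for 31 hairpins and lower for 3, 35.1% of 97 (32.0% higher, 3.09% lower), with a median log2 difference of 1.51. The 97 were kept by passenger reads in F180del libraries alone, which may favour F180del. The excess of higher over lower hairpins is therefore not read as a result. With the spread taken from the F180del and null libraries alone 5 were higher and 0 lower. Without the first null IP library 22 were higher and 3 lower. Without the second F180del total or null total library, or either F180del IP library, between 14 and 20 were higher.

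Against G199S no miRNA's IP to total ratio differed (0.00% of 315, edgeR and DESeq2 alike), and 4 had an unadjusted p under 0.05. None of the 97 hairpins differed in passenger to guide ratio either (0.00%), with none at an unadjusted p under 0.05 (limma). For miR-48-3p the difference was 0.01 ± 0.94 (edgeR adjusted p = 1.00), an interval that still allows differences of several fold. In level the alleles were not alike for this strand, at 4361 and 2626 RPM in F180del IP and 413 and 238 RPM in G199S IP. The median hairpin difference was 0.36, with 66 of 97 above 0. The p-values do not show that the 2 alleles act alike.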

How the data were processed

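Small RNA libraries were made from RNA of whole-animal lysate ("total", input) and of ALG-1 co-precipitates, 2 per genotype and fraction. Per the submitters' processing notes FastQC 0.11.8, cutadapt, Bowtie 1.2.2 and DESeq2 were used; which settings, genome build and miRNA annotation they were run with, and how multiply matching reads were shared out, is not given in the sources used here. The authors deposited raw counts of reads per mature miRNA and precursor, and an RPM table with those counts scaled to each library's sum over all rows. RPM in this text was computed the same way from the deposited counts. Of 450 rows, 13 that repeat a mature name from another of its precursors were removed, which left 437 miRNAs. 48 per-sample columns of the deposited tables match no label and were not used.

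Counts were fitted with edgeR 4.0.16 (R 4.3.3) on all 24 libraries with 12 group means, TMM factors and the filterByExpr filter, which kept 315 miRNAs. The quasi-likelihood test was adjusted by Benjamini-Hochberg, with a threshold of 0.05, and SE is the log2 change divided by the root of F. Interactions tested whether the IP to total change differed between genotypes. Passenger to guide ratios, log2 of reads plus 0.5, were fitted with limma 3.58.1, and DESeq2 1.42.0 was an alternative. The code was checked on simulated counts. The named miRNAs are up to 12 per direction by size of log2 change among those called with separate fractions, up to 6 per direction for the comparison with WT and for hairpins, up to 4 for the null and G199S, the 5 with most reads in each fraction, and examples from each list. The members and lists were chosen with earlier results of these data known. The WBcel235 annotation was used only for names and host genes. No sample was dropped from a fit unless stated.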

Additional observations from a re-analysis of the deposited data

Results flagged for a closer look

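The IP to total ratio of F180del differed from that of WT in 7 miRNAs by the interaction test, which is what singles them out. The log2 differences were 5.00 for miR-87-5p, 4.73 for miR-229-3p, 4.18 for miR-790-3p and 3.18 for miR-72-3p, and -5.91 for miR-1820-5p, -5.36 for miR-797-5p and -4.66 for miR-795-5p. In their passenger to guide ratios 3 hairpins differed from WT, mir-87 by 5.70, mir-72 by 4.83 and mir-229 by -6.19. Each of these 3 hairpins also has an arm among the 7 miRNAs, and both tests use the same reads.

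Against the null, fitted log2 differences were 11.05 for miR-87-5p, 10.98 for miR-55-5p, 10.05 for miR-8200-3p and 9.27 for miR-360-3p. Null IP held no read of any of these 4, so the fitted size depends on the prior count and is no bound. miR-360-3p had 16.2 and 13.5 RPM in F180del IP and 8.39 and 0.857 RPM in F180del total, while null had 0 and 0 RPM in IP and 4.58 and 3.39 RPM in total. Differences in the other direction were -7.99 for miR-358-5p, -6.94 for miR-4936, -6.04 for miR-1820-5p and -5.16 for miR-84-5p. Null total held no read of miR-358-5p, so its fitted size is no bound either. miR-4936 had 0.254 and 0 RPM in F180del IP, against 8.59 and 1.07 RPM in null IP. miR-1820-5p had 136 and 393 RPM in F180del IP, against 450 and 397 RPM in null IP, with 25.2 and 19.4 RPM in null total. The causes of these differences were not tested.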

How the results depend on the processing

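For IP against total in F180del (7 higher, 21 lower), DESeq2 called 19 higher, library totals 13, RLE factors 13, no filter on low counts 22 higher and 12 lower, a fit without null IP libraries 19 higher, and a fit of the F180del libraries alone 23 higher. Leaving out 1 library gave 1 to 19 higher and 5 to 20 lower. For the ratio against WT (4 higher, 3 lower), DESeq2 called 11 and 5, the compared groups alone 6 and 5, and leaving out 1 library 0 to 4 and 0 to 4. For the ratio against null (15 higher, 12 lower), DESeq2 called 44 higher, library totals 61, RLE factors 30, no filter 33, the compared groups alone 5 and 5, and leaving out 1 library 11 to 86 higher and 1 to 23 lower. Against G199S every setting run gave 0. For hairpins, IP against total (7 higher, 5 lower), no minimum of passenger reads gave 11 higher, a pseudocount of 5 gave 12 and 8, naming guides by IP libraries gave 8 lower, and leaving out 1 library 0 to 15 and 0 to 8. Hairpins against WT (2 higher, 1 lower) gave 1 higher with a pseudocount of 5, 0 lower with guides named by IP libraries, and 1 to 3 and 0 to 1 without 1 library. Hairpins against null (31 higher, 3 lower) gave 5 and 0 in the compared groups alone, 1 lower with at least 50 passenger reads, and 14 to 31 and 0 to 10 without 1 library. The passenger share ratio of 2.10 was 1.47, 1.38 and 1.26 without the 2, 3 and 8 leading passengers, chosen after the data were seen, and 1.86 to 2.41 without 1 library. Naming guides by IP libraries turned mir-229 against WT to 6.19 and mir-789 to -3.93, because the arms swap names. The cause of the other shifts was not tested, apart from the smaller number of samples.

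Same-numbered libraries share only a number in the labels: deviations correlated at 0.109 in F180del and 0.301 in G199S, and at or below -0.0333 elsewhere. With a replicate block the calls were 7 higher and 16 lower for IP against total, 0 and 0 against WT, 13 and 8 against null, and, for hairpins, 10 and 5 for IP against total, 3 and 1 against WT and 22 and 1 against null. Of 57 named results under 809 alternatives, 607 kept their direction and side of the threshold, 200 lost the call, and 2 changed sign. With 2 libraries per group and counting floors between 0.321 and 0.761 RPM, small differences and scarce miRNAs could not be resolved.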
